A study of Mus musculus with 12 samples.

Results

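Lin28a and Lin28b, the Igf2bp family, Hmga2 and the Esrp splicing regulators were followed as mouse embryonic stem cells left the undifferentiated state. The set was given as 9 named genes, which also include Trim71. Its members were the non-control probes of the scanner files named for one of these genes. Lin28 was read as Lin28a, and 4 probes under the older names Rbm35a and Rbm35b were read as Esrp1 and Esrp2 through their RefSeq accessions or the name they share with such a probe. This gave 18 of 41174 probes. Of these, 16 passed the filter on dim signal and stood for 8 of the 17762 genes tested. No probe carried the name or a matching accession of Trim71, which is not analysed here. The rule that picks the probes uses their names alone. The members, and the gene lists used below, were however chosen with earlier results of these data known. The description as RNA-binding covers the Lin28, Igf2bp and Esrp proteins but not Hmga2, which binds DNA.

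The series measured total RNA from embryonic stem cells of strain 129 on 12 one-colour arrays, in 6 groups of 2 and with 1 culture per array. One group was undifferentiated, with LIF (leukaemia inhibitory factor) in its titles. The others were embryoid bodies (EB) at day 1, day 3 and day 4 and monolayer cultures (ML) at day 1 and day 3. LIF is the cytokine that holds mouse embryonic stem cells undifferentiated, and an embryoid body is a clump of such cells that differentiates in suspension. The labels name no allele and no other agent. In each group 1 array is labelled clone 1 and the other clone 2, and the submitters' design text describes independent experiments done by different people at each time. The p-values therefore measure the spread between the 2 cultures of a group, pooled over the 6 groups.

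Lin28a and Lin28b bind the precursors of the let-7 microRNAs and block their maturation, and mature let-7 in turn silences Lin28 and a group of growth genes that are active in embryonic cells. Hmga2 and Igf2bp1 are among the best known of these let-7 targets. The Igf2bp proteins hold bound messenger RNAs in a stable or translatable state, and Esrp1 and Esrp2 promote the splice forms typical of epithelial cells. In stem cells and early embryos Lin28 is known as a marker of the pluripotent state and of its first steps towards differentiation.

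The 4 mature sequences below show what the let-7 family shares, with the seed (bases 2 to 8, the part that pairs with targets) in capitals. They are RefSeq sequences of build GRCm38.p6. All 9 let-7 family names in the table used, miR-98 included, have the seed GAGGUAG. The let-7a sequence lies at chr13:48538239-48538260 and let-7d at chr13:48536078-48536099, both on the minus strand. Mature let-7 was not measured on these arrays.
mmu-let-7a-5p: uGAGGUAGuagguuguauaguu
mmu-let-7d-5p: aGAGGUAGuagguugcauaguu
mmu-let-7g-5p: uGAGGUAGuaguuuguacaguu
mmu-miR-98-5p: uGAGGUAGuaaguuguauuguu

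The complement of this seed, CTACCTC, stands in 2 of the 18 member probes, and 30 bases around each match are printed here because both probes belong to let-7 targets. Probes are 60 bases long and read in the sense of the messenger RNA. One match is in the Hmga2 probe used for its values, at chr10:119798739-119798798. The other is in a further Igf2bp1 probe at chr11:95819412-95819471. The files give both positions on build mm9, minus strand, and the exon parts they fall in were not looked up because no mm9 annotation was used here. Over all 41174 probes, 126 (0.306%) hold CTACCTC and 113 (0.274%) hold GAGGTAG, its reading on the opposite strand, which no member probe holds. A match describes these letters and is not evidence of a site in use.
Hmga2 probe: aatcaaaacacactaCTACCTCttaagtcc
Igf2bp1 probe: tggttttaatCTACCTCttagcaaaacaat

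Between 52.1% and 63.8% of the spots of an array were well above background, and the array's 75th percentile of signal lay between 326 and 596 intensity units. Both were lowest in EB day 4, at 53.8% and 52.1% and at 393 and 326 units. The clones of a group correlated at Pearson's r of 0.971 to 0.992 across the genes tested. The cells were checked against 6 embryonic stem cell markers (Pou5f1, Sox2, Nanog, Zfp42, Esrrb and Klf4), all measured. Their summed level was 173 to 192 times the array's 75th percentile in undifferentiated cells and 12.9 to 14.5 times in EB day 4. Undifferentiated cells and EB day 4 each sat alone on a slide with a scan day of its own, so those groups and their slide cannot be told apart. EB day 4 was also read on a scanner that no other group used. EB day 1 and EB day 3 shared a slide, ML day 1 and ML day 3 shared another, and these 8 arrays shared a scan day. In the direct comparisons of EB with ML, culture format and slide therefore cannot be told apart either.

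Most called changes of the members were increases from the undifferentiated state. Limma's p-values were adjusted by Benjamini-Hochberg over all genes of a comparison, and a change was called below 0.05. All 5 comparisons with undifferentiated cells share the same 2 control arrays. At EB day 1, 1 of 8 members (Lin28b) was higher, against 7.97% of all genes tested. At ML day 1 the member called higher was Lin28a, also 1 of 8, against 11.6%. At EB day 3, 4 of 8 were higher (Lin28a, Lin28b, Igf2bp3 and Hmga2), against 12.9%. At ML day 3, 4 of 8 were higher (Lin28a, Lin28b, Igf2bp3 and Esrp1), against 12.7%. At EB day 4, 4 of 8 were higher (Lin28b, Igf2bp2, Igf2bp3 and Hmga2), against 18.8%, and 1 of 8, Esrp1, was lower, against 22.1%. The share of all genes called lower was 5.38% at EB day 1, 6.42% at ML day 1, 10.7% at EB day 3 and 10.8% at ML day 3, where no member was lower. The median change of the 8 members was 0.74 on the log2 scale at EB day 3 and 0.85 at ML day 3, where the median of all genes was 0.05 and 0.03. At EB day 4 it was 0.64, beside -0.04 for all genes.

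Between the later groups fewer members were called. From day 1 to day 3, Hmga2 rose in EB (1 of 8 members, against 3.09% of all genes called higher), and Igf2bp3 rose in ML (1 of 8, against 5.77%). From EB day 3 to EB day 4, Esrp1 fell (1 of 8, against 8.79% called lower and 3.85% higher). At day 3, Igf2bp2 was higher in EB than in ML (1 of 8, against 1.6%). At day 1, limma called 0 of 8 members between EB and ML, where 0.0676% of all genes were called, and 2 had an unadjusted p under 0.05. For the difference between the day 1 to day 3 changes of EB and ML it called 0 of 8, where 0.242% of all genes were called, and 2 had an unadjusted p under 0.05. In all, 19 member changes were called. With 2 arrays in a group many of these calls rest on each array: 4 of the 19 held in every fit that left out 1 array of the groups compared. When only the arrays of the compared groups were fitted, 4 of the 19 calls remained.

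**Figure D1:**
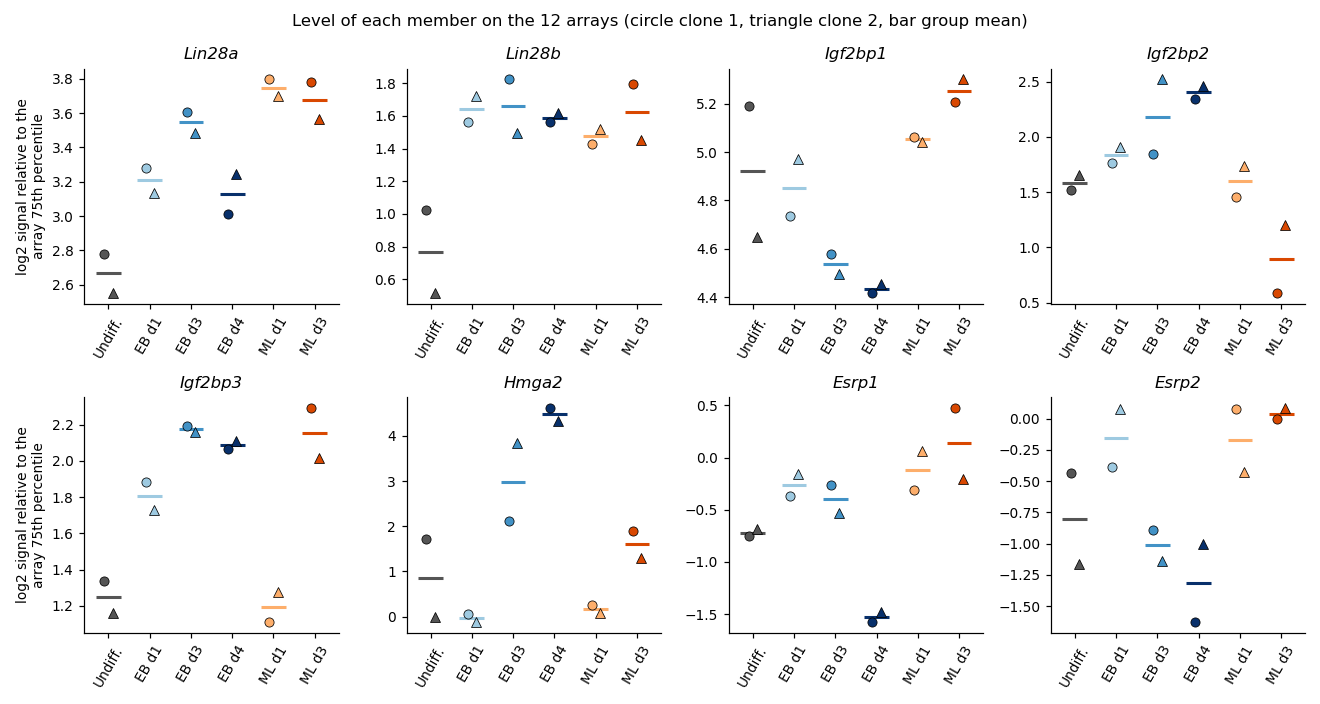
Level of each of the 8 measured members on the 12 arrays, as log2 signal relative to the array's 75th percentile, with a separate vertical scale for each gene. Circles are clone 1, triangles clone 2 and bars the mean of the 2 arrays. Hmga2 is highest in EB day 4 (4.61 and 4.33), and Lin28a and Lin28b are lowest in undifferentiated cells.

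Lin28a, which blocks let-7 maturation in the cytoplasm, was lowest in undifferentiated cells. Its level, as log2 signal relative to the array's 75th percentile, was 2.78 in clone 1 and 2.55 in clone 2 of that group. It was 3.28 and 3.14 in EB day 1, 3.61 and 3.49 in EB day 3, and 3.01 and 3.25 in EB day 4. In ML it was 3.80 and 3.70 at day 1 and 3.78 and 3.57 at day 3. All 10 arrays of differentiating cells lay above both arrays of undifferentiated cells. In order of the means, ML day 1, ML day 3 and EB day 3 overlapped as neighbours, EB day 1 and EB day 4 overlapped below them, and undifferentiated cells stood apart at the bottom.

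Lin28a rose by 1.08 ± 0.19 (log2 change ± SE, n = 2 per group, limma adjusted p = 0.0109), or 2.12-fold, at ML day 1. The rise was 1.01 ± 0.19 (adjusted p = 0.00739), or 2.01-fold, at ML day 3 and 0.88 ± 0.19 (adjusted p = 0.0127), or 1.84-fold, at EB day 3. The change was 0.54 ± 0.19 at EB day 1 (adjusted p = 0.0931) and 0.46 ± 0.19 at EB day 4 (adjusted p = 0.0846), and neither passed the test. The difference between EB and ML at day 1 was -0.54 ± 0.19 (adjusted p = 0.423), with a 95% interval of -0.98 to -0.10 before adjustment. The ML day 3 call held in all 4 fits without 1 array. The ML day 1 call was lost without clone 2 of undifferentiated cells (adjusted p = 0.0553) or without either ML day 1 array (0.0733 and 0.0700), and the EB day 3 call without clone 2 of undifferentiated cells (0.0599) or either EB day 3 array (0.0656 and 0.0517).

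Lin28b, the paralogue of Lin28a that blocks the same microRNAs, was also lowest before differentiation. It was at 1.02 and 0.52 in the clones of undifferentiated cells. The EB values were 1.56 and 1.72 at day 1, 1.82 and 1.49 at day 3, and 1.56 and 1.62 at day 4. Those of ML were 1.43 and 1.52 at day 1 and 1.80 and 1.45 at day 3. No array of differentiating cells overlapped the undifferentiated ones, while the 5 differentiating groups had means within 1.47 to 1.66. Among these neighbours in the order, only EB day 4 and ML day 1 did not overlap.

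Lin28b rose by 0.87 ± 0.24 at EB day 1 (1.83-fold, adjusted p = 0.0414), 0.89 ± 0.24 at EB day 3 (1.85-fold, adjusted p = 0.0253) and 0.82 ± 0.24 at EB day 4 (1.77-fold, adjusted p = 0.0213). At ML day 3 it rose by 0.86 ± 0.24 (1.81-fold, adjusted p = 0.0292), and at ML day 1 the change of 0.71 ± 0.24 did not pass (adjusted p = 0.0667), except without clone 1 of undifferentiated cells (0.96, 0.0339). These calls rest on clone 2 of undifferentiated cells, the lower of that pair: without it the changes were 0.62 at EB day 1, 0.64 at EB day 3, 0.57 at EB day 4 and 0.60 at ML day 3, with adjusted p of 0.196, 0.129, 0.121 and 0.152. They were also lost, at adjusted p of 0.0562 to 0.181, without either array of EB day 1, EB day 3 or EB day 4 and without clone 1 of ML day 3.

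A second, far dimmer Lin28b probe did not show the rise. It read 20.2 to 40.0 intensity units, against 713 to 2110 for the brighter probe. The lowest values flagged well above background on an array lay between -5.74 and -4.16. A signal this near background may not register such a change, so the rise cannot be decided on this probe. It was well above background on 11 of 12 arrays, with group means between -4.24 and -3.92, and its changes from undifferentiated cells were 0.14 at EB day 1, -0.15 at EB day 3, 0.020 at EB day 4, -0.017 at ML day 1 and 0.17 at ML day 3. Its values correlated with those of the brighter probe at r = 0.26 over the 12 arrays. With the mean of both probes, 0 of the 4 Lin28b calls remained (adjusted p of 0.116 to 0.247). One more probe of this gene was well above background on 0 of 12 arrays.

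Hmga2, a chromatin protein and let-7 target, had the widest range of the 8 members, with group means spanning 4.51. It was 1.71 in clone 1 and -0.01 in clone 2 of undifferentiated cells. Levels in EB were 0.05 and -0.12 at day 1, 2.12 and 3.85 at day 3, and 4.61 and 4.33 at day 4. Levels in ML were 0.25 and 0.07 at day 1 and 1.90 and 1.30 at day 3. Both EB day 4 arrays were above all other arrays, and both EB day 3 arrays were above those of the remaining 4 groups. ML day 3 overlapped undifferentiated cells, whose clones lay far apart and also overlapped ML day 1.

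Hmga2 rose 12.3-fold from undifferentiated cells to EB day 4 (log2 change 3.62 ± 0.61, adjusted p = 0.00187), and this call held in all 4 fits without 1 array, where the change ran from 2.76 to 4.49. It rose by 3.02 ± 0.61 from EB day 1 to EB day 3 (8.11-fold, adjusted p = 0.0263) and by 2.14 ± 0.61 from undifferentiated cells to EB day 3 (4.39-fold, adjusted p = 0.0348). Without clone 2 of EB day 3, the higher of that pair, these changes were 2.16 (adjusted p = 0.183) and 1.27 (0.207). The first was also lost without either EB day 1 array (changes of 3.11 and 2.93, adjusted p = 0.118 and 0.168). The second was also lost without clone 2 of undifferentiated cells (1.27, adjusted p = 0.195). Changes that did not pass were 1.44 ± 0.61 from ML day 1 to ML day 3 (adjusted p = 0.156), 1.49 ± 0.61 from EB day 3 to EB day 4 (0.142) and 1.39 ± 0.61 between EB and ML at day 3 (0.284). The change from EB day 3 to EB day 4 passed when clone 2 of EB day 3 was left out (2.35, adjusted p = 0.0480).

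A second Hmga2 probe followed the first closely (r = 0.99 over 12 arrays). On it Hmga2 rose by 3.18 to EB day 4 (adjusted p = 0.00388) and by 3.14 from EB day 1 to EB day 3 (adjusted p = 0.0245), while the change from undifferentiated cells to EB day 3 was 1.43 (adjusted p = 0.126). One more probe was well above background on 3 arrays, which were both EB day 4 arrays and clone 1 of undifferentiated cells.

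**Figure D2:**
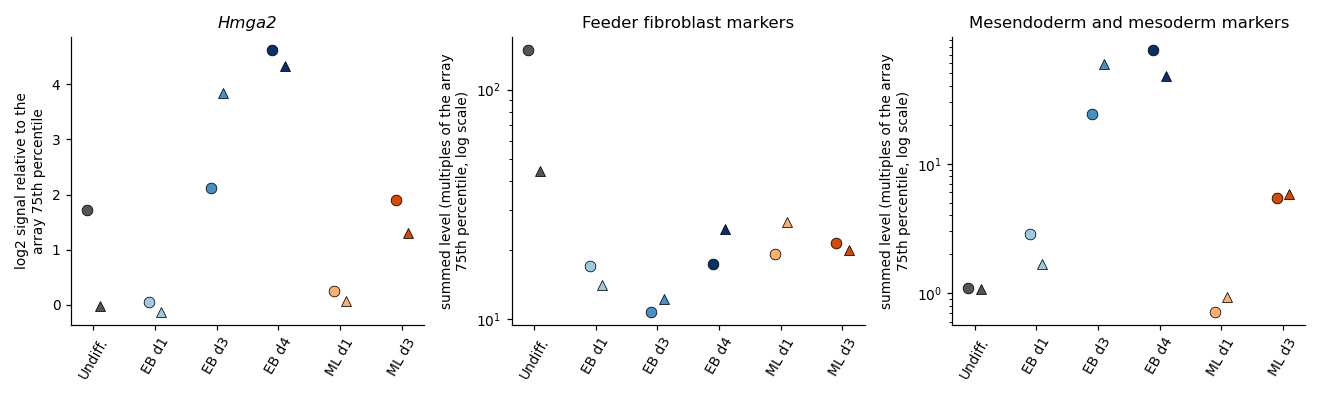
Hmga2 level (log2 signal relative to the array's 75th percentile), summed level of 13 feeder fibroblast markers and summed level of 6 mesendoderm and mesoderm markers on each array (log axes, multiples of the array's 75th percentile). Circles are clone 1 and triangles clone 2. Clone 1 of undifferentiated cells is the highest array for the fibroblast markers (148), and clone 2 of EB day 3 exceeds clone 1 for both Hmga2 and the mesendoderm markers (59.5 against 24.3).

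Markers of other cell types differed between arrays in ways that partly followed Hmga2. Of 15 fibroblast markers, which feeder cells would bring, 13 were measured, and their summed level was 148 in clone 1 and 44.3 in clone 2 of undifferentiated cells, the same order as Hmga2. Across the other groups the fibroblast markers did not follow Hmga2: their sum was 14.2 to 17.2 in EB day 1, 10.8 to 12.3 in EB day 3, 17.5 to 24.9 in EB day 4, 19.4 to 26.4 in ML day 1 and 20.0 to 21.6 in ML day 3. Of these markers Dcn, a matrix proteoglycan, did not clear background in EB day 4. The 6 mesendoderm and mesoderm markers summed to 1.07 to 1.09 in undifferentiated cells, 1.68 to 2.86 in EB day 1, 24.3 to 59.5 in EB day 3 and 47.6 to 75.5 in EB day 4, with 0.720 to 0.938 in ML day 1 and 5.43 to 5.81 in ML day 3. Mixl1, a primitive streak factor among them, was not well above background in undifferentiated cells or EB day 1. Of 10 extraembryonic endoderm markers 9 were measured, summing to 2.15 to 2.96 in undifferentiated cells, 2.81 to 6.65 in EB day 1, 56.5 to 58.0 in EB day 3, 48.2 to 58.3 in EB day 4, 1.46 to 1.95 in ML day 1 and 5.24 to 5.75 in ML day 3. The part of these cell types in the member values was not tested. In these bulk samples fewer cells of a type and less RNA per cell cannot be told apart.

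Igf2bp1, a let-7 target that stabilises bound messenger RNAs, was not called on its brightest probe in any of the 11 comparisons. It was 5.19 and 4.65 in undifferentiated cells. EB arrays read 4.73 and 4.97 at day 1, 4.58 and 4.50 at day 3, and 4.42 and 4.45 at day 4. ML arrays read 5.06 and 5.04 at day 1 and 5.21 and 5.30 at day 3. EB day 1, EB day 3 and EB day 4 followed each other downwards without overlap, and both ML groups lay above all EB arrays, while the clones of undifferentiated cells spanned most of this range. The difference of -0.71 ± 0.22 between EB and ML at day 3 did not pass (adjusted p = 0.122, 95% interval -1.20 to -0.23 before adjustment).

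The 3 Igf2bp1 probes differed. Relative to undifferentiated cells the brightest was lower in EB (means 4.85, 4.54 and 4.44 against 4.92). The probe holding the seed match was higher there, at 3.92, 4.10 and 3.85 against 3.37, and at 4.16 and 4.52 in ML. The last probe was at 2.09, 1.68 and 1.16 in EB against 1.43, and at 2.81 and 2.75 in ML. Both further probes thus rose from undifferentiated cells in ML, by 0.79 and 1.38 at day 1 and by 1.14 and 1.32 at day 3. On the brightest probe the ML changes were 0.13 at day 1 and 0.33 at day 3. The correlation with the brightest probe over the 12 arrays was r = 0.41 for the seed-match probe and 0.83 for the last. On all 3 probes the mean of ML day 3 was above that of EB day 3.

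Igf2bp2, which binds messenger RNAs of growth and metabolism, was highest in EB day 4 and lowest in ML day 3. It was 1.52 and 1.65 in undifferentiated cells. The clones of EB were at 1.76 and 1.91 at day 1, 1.85 and 2.52 at day 3, and 2.34 and 2.46 at day 4. The clones of ML were at 1.46 and 1.74 at day 1 and 0.59 and 1.20 at day 3. Neighbouring EB groups overlapped in this order, as did ML day 1 and undifferentiated cells, and both arrays of ML day 3 were below all others.

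Igf2bp2 was 2.44-fold higher in EB than in ML at day 3 (log2 difference 1.29 ± 0.28, adjusted p = 0.0428). It rose by 0.82 ± 0.28 (1.77-fold, adjusted p = 0.0435) from undifferentiated cells to EB day 4. With normexp background correction that rise was 0.63 and did not pass (adjusted p = 0.0702). Nor did it pass with quantile normalization (0.76, adjusted p = 0.0519) or the authors' values (0.77, 0.0501). The day 3 call was lost without clone 2 of EB day 3 (0.95, adjusted p = 0.252), without clone 1 of ML day 3 (0.98, 0.190) and when the 8 arrays of the shared scan day were fitted alone (adjusted p = 0.0915). The EB day 4 call was lost without any 1 of its 4 arrays (0.75 to 0.89, adjusted p = 0.0928 to 0.164). The changes of -0.70 ± 0.28 from ML day 1 to ML day 3 (adjusted p = 0.134) and -0.69 ± 0.28 from undifferentiated cells to ML day 3 (0.106) did not pass, except without clone 2 of ML day 3 (-1.01, 0.0393, and -0.997, 0.0354). The change from day 1 to day 3 differed between EB and ML by 1.05 ± 0.40 (adjusted p = 0.400), which did not pass.

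Igf2bp3, the family member best known from fetal tissue and tumours, was called higher than in undifferentiated cells at EB day 3, EB day 4 and ML day 3. It was 1.34 and 1.16 in undifferentiated cells. In embryoid bodies its level was 1.89 and 1.73 at day 1, 2.19 and 2.16 at day 3, and 2.07 and 2.11 at day 4. In monolayers its level was 1.11 and 1.27 at day 1 and 2.29 and 2.02 at day 3. EB day 3, ML day 3 and EB day 4 overlapped at the top, EB day 1 lay between, and undifferentiated cells overlapped ML day 1 at the bottom.

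Igf2bp3 rose by 0.93 ± 0.19 at EB day 3 (1.90-fold, adjusted p = 0.00920), 0.84 ± 0.19 at EB day 4 (1.79-fold, adjusted p = 0.00747) and 0.91 ± 0.19 at ML day 3 (1.87-fold, adjusted p = 0.0103). From ML day 1 to ML day 3 it rose by 0.96 ± 0.19 (1.95-fold, adjusted p = 0.0138). The EB day 3 and EB day 4 calls held in all fits without 1 array. The ML day 3 call missed the threshold without clone 2 of undifferentiated cells (adjusted p = 0.0504). The rise from ML day 1 to ML day 3 was lost without either ML day 1 array (0.0857 and 0.0800) or clone 1 of ML day 3 (0.0579). The changes of 0.56 ± 0.19 at EB day 1 (adjusted p = 0.0804) and 0.62 ± 0.19 between EB and ML at day 1 (adjusted p = 0.337) did not pass.

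The Igf2bp3 probe used above and the one closest to it over the 12 arrays (r = 0.92) are printed because they read separate stretches of the transcript and gave a like order of groups. The first lies at chr6:49037849-49038456, where its 60 bases span 608 bases of the genome and so cross an exon junction. The second lies at chr6:49057401-49057460 (both mm9, minus strand).
Igf2bp3 probe 1: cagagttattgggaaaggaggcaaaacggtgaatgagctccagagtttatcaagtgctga
Igf2bp3 probe 2: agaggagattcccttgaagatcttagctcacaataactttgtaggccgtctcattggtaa

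The second of these probes was at -0.58 on average in undifferentiated cells, -0.43, -0.13 and -0.24 in EB day 1, day 3 and day 4, and -0.95 and -0.11 in ML day 1 and day 3. Another Igf2bp3 probe (r = 0.74) differed in EB day 4, where its mean of 2.45 was its highest, against 1.13 in undifferentiated cells. On that probe the changes were 0.42 at EB day 3 (adjusted p = 0.128), 0.55 at ML day 3 (0.0589) and 1.32 at EB day 4 (0.000704). Its change at EB day 1 was -0.084. From EB day 3 to EB day 4 that probe rose by 0.90, where the brightest probe changed by -0.089.

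**Figure D3:**
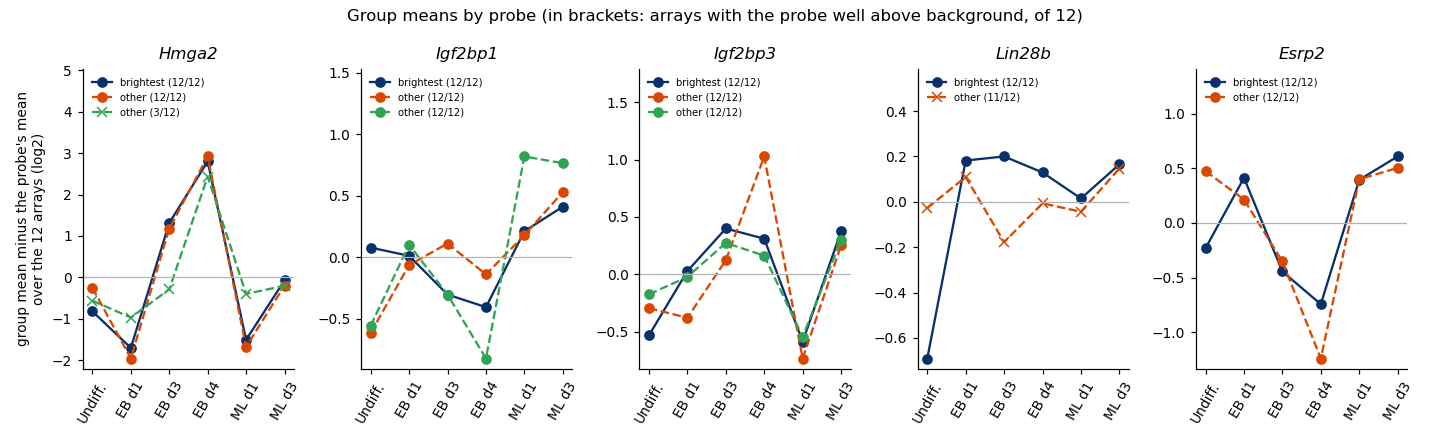
Group means by probe for the 5 members with more than 1 probe past the filter, each probe centred on its own mean over the 12 arrays (log2). Solid lines are the brightest probe, broken lines the other probes, and crosses mark probes not well above background on all arrays. The Hmga2 probes that were well above background on all arrays share 1 course. The second Lin28b probe, which reads near background, lacks the low value of undifferentiated cells. The Igf2bp1 probes part between undifferentiated cells and the differentiating groups.

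Esrp1, a splicing factor of epithelial cells, was highest in ML day 3 and lowest in EB day 4. It was -0.75 and -0.69 in undifferentiated cells. Its EB levels were -0.37 and -0.15 at day 1, -0.26 and -0.53 at day 3, and -1.58 and -1.48 at day 4. Its ML levels were -0.31 and 0.06 at day 1 and 0.47 and -0.20 at day 3. Both EB day 4 arrays were below all others, undifferentiated cells came next without overlap, and the remaining 4 groups overlapped as neighbours.

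Esrp1 fell by 1.13 (-1.13 ± 0.26, 2.19-fold lower, adjusted p = 0.0252) from EB day 3 to EB day 4, and EB day 4 was 1.75-fold below undifferentiated cells (-0.81 ± 0.26, adjusted p = 0.0327). ML day 3 was 1.81-fold above undifferentiated cells (0.86 ± 0.26, adjusted p = 0.0409), and the change of 0.60 ± 0.26 at ML day 1 did not pass (adjusted p = 0.134). With normexp background correction the changes to EB day 4 shrank to -0.67 (adjusted p = 0.0642) and -0.34 (0.269). The fall from EB day 3 was lost without clone 1 of EB day 3 (0.161) or either EB day 4 array (0.110 and 0.110). The difference of EB day 4 from undifferentiated cells was lost without any 1 of the 4 arrays (0.0810 to 0.132), and the ML day 3 call without either undifferentiated array (0.110 and 0.110) or clone 1 of ML day 3, where the change was 0.52 (0.177).

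Esrp2, the paralogue of Esrp1, was not called on its brightest probe. It was -0.44 and -1.16 in undifferentiated cells. EB clones had -0.39 and 0.08 at day 1, -0.89 and -1.14 at day 3, and -1.63 and -0.999 at day 4. ML clones had 0.08 and -0.42 at day 1 and 0.00 and 0.08 at day 3. EB day 3 and EB day 4 lay below EB day 1 and both ML groups, and undifferentiated cells overlapped EB day 3. The differences were -1.05 ± 0.33 between EB and ML at day 3 (adjusted p = 0.129), -0.86 ± 0.33 from EB day 1 to EB day 3 (0.179), 0.84 ± 0.33 between ML day 3 and undifferentiated cells (0.0915) and -1.07 ± 0.46 between the EB and ML changes with day (0.477). The difference of ML day 3 from undifferentiated cells passed without clone 1 of undifferentiated cells (1.20, adjusted p = 0.0478).

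A second Esrp2 probe (r = 0.76) was also lowest in EB day 4, at a mean of -2.42. Its changes from undifferentiated cells were -1.72 at EB day 4 and -0.26 at EB day 1. The brightest probe had -0.51 and 0.64 there. The second probe stood at -0.71 in undifferentiated cells and -0.68 in ML day 3, so the rise towards ML day 3 was not seen on it. Esrp1 and Esrp2 correlated at r = 0.74 over the 12 arrays, Esrp2 and Igf2bp1 at 0.87, Igf2bp1 and Igf2bp2 at -0.83, and Lin28a and Lin28b at 0.71. These correlations describe 12 arrays that share groups and slides.

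**Figure D4:**
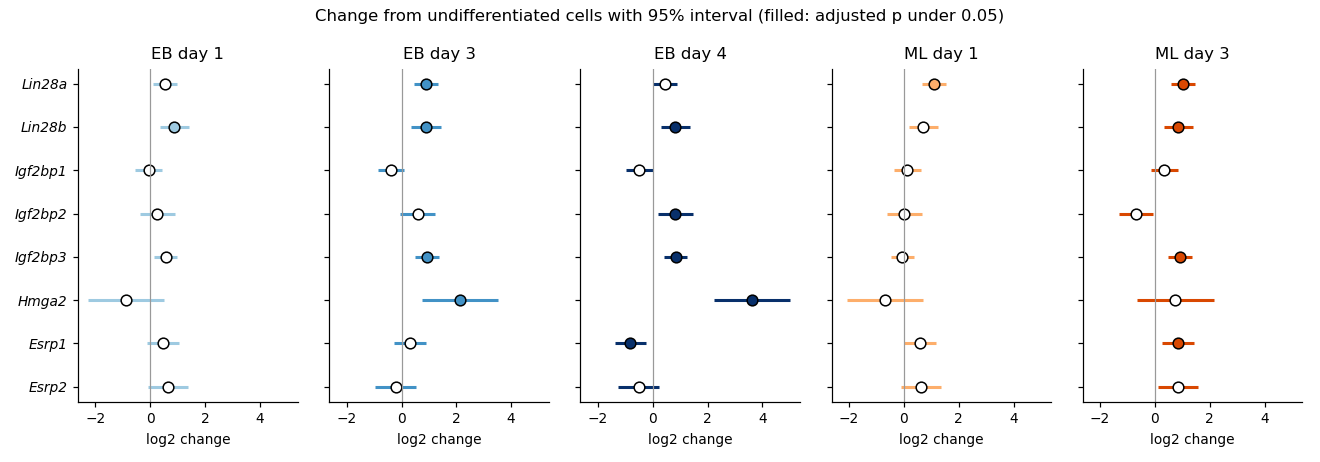
Log2 change of each member from undifferentiated cells, in 1 panel per differentiating group. Points are estimates from 2 arrays per group, lines are 95% intervals before adjustment, and filled points have an adjusted p under 0.05. The largest change is that of Hmga2 at EB day 4 (3.62), and the intervals of Igf2bp1, from its brightest probe, include 0 in all 5 panels.

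Of 20 genes of let-7 and microRNA processing, all measured, 5 were higher and 1 lower at EB day 1, 5 and 2 at ML day 1, 6 and 2 at EB day 3, 4 and 2 at ML day 3, and 6 and 7 at EB day 4, each against undifferentiated cells. Over all genes the shares called higher and lower were 7.97% and 5.38% at EB day 1, 11.6% and 6.42% at ML day 1, 12.9% and 10.7% at EB day 3, 12.7% and 10.8% at ML day 3, and 18.8% and 22.1% at EB day 4. The processing genes lower at EB day 1 (1 of 20), EB day 3 (2 of 20) and ML day 3 (2 of 20) are thus near the shares of all genes. The list's median change was 0.18 at EB day 3 and -0.17 at EB day 4, beside 0.05 and -0.04 for all genes. Dgcr8, the partner of Drosha in cutting primary microRNAs, was higher at EB day 1 (1.56 ± 0.44, adjusted p = 0.0492), ML day 1 (1.94 ± 0.44, 0.0215), EB day 3 (1.53 ± 0.44, 0.0360) and ML day 3 (1.69 ± 0.44, 0.0245). Its undifferentiated arrays had an SD of 1.15. Tut7, an enzyme that adds uridines to let-7 precursors, was lower in all 5 comparisons, among them EB day 1 (-1.09 ± 0.24, adjusted p = 0.0225) and ML day 1 (-1.35 ± 0.24, 0.0108). Dicer1, which cuts precursors to mature microRNAs, was lower at ML day 3 (-1.18 ± 0.20, adjusted p = 0.00470) and EB day 4 (-1.51 ± 0.20, 0.000611).

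From EB day 3 to EB day 4, 0 of the 20 rose and 5 fell in limma's test, where 3.85% of all genes rose and 8.79% fell. That all-gene balance turned with the background handling: 684 rose and 1561 fell here, but 1724 rose and 1197 fell with normexp. At an unadjusted p under 0.05, 2 of the 20 were higher. Ago4, an Argonaute protein, fell by 2.22 (-2.22 ± 0.29, adjusted p = 0.00387), and Khsrp, which promotes let-7 maturation, by 1.87 (-1.87 ± 0.25, 0.00448). Tut4, the uridylyl transferase that Lin28 recruits, was higher in EB day 4 than in undifferentiated cells (1.00 ± 0.27, adjusted p = 0.0155) and was chosen here for that role after its values were seen. Dis3l2, the nuclease that degrades uridylated let-7 precursors, had an adjusted p of 0.116 to 0.980 in the 5 comparisons with undifferentiated cells and was likewise chosen after its values were seen.

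Of 21 known let-7 target genes beside the members, all measured, 6 were higher and 1 lower at EB day 3, where 12.9% and 10.7% of all genes were. At EB day 4 it was 9 higher and 4 lower, against 18.8% and 22.1% of all genes, so the lower count is near that share. At ML day 3, 1 was higher and 2 lower, against 12.7% and 10.8%. At day 1 limma called 0 higher and 2 lower in both EB and ML, against 7.97% and 5.38% of all genes in EB and 11.6% and 6.42% in ML. At an unadjusted p under 0.05, 2 were higher in EB and 3 in ML. The list's median change was 0.67 at EB day 3, 0.51 at EB day 4 and 0.07 at ML day 3, where that of all genes was 0.05, -0.04 and 0.03. Igf2, the growth factor whose messenger RNA the Igf2bp proteins are named for, was lower at EB day 1 than in undifferentiated cells (-2.63 ± 0.70, adjusted p = 0.0391). It then rose by 3.19 ± 0.70 to EB day 3 (0.0332) and by a further 3.51 ± 0.70 to EB day 4 (0.0157). The arrays of EB day 3, which both steps use, had an SD of 1.62, and those of EB day 4 had 0.918. Arid3a, a DNA-binding factor, was higher at EB day 4 (3.18 ± 0.43, adjusted p = 0.000649). Insr, the insulin receptor, rose from day 1 to day 3 in EB (1.37 ± 0.29, adjusted p = 0.0292) and in ML (2.13 ± 0.29, 0.00306). In ML day 1 Insr was well above background on 1 of 2 arrays, so the size of its ML change is uncertain. Igf1r rose by 0.85 ± 0.20 in EB (adjusted p = 0.0468) and 0.89 ± 0.20 in ML (0.0247). Mycn fell from ML day 1 to ML day 3 (-1.41 ± 0.31, adjusted p = 0.0204).

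Of 32 other RNA-binding and splicing regulators 31 were measured. At EB day 3, 7 were higher and 3 lower than in undifferentiated cells, at ML day 3 it was 3 and 3, and at EB day 4 it was 7 and 8. These counts are near the shares of all genes at ML day 3 (12.7% higher and 10.8% lower) and EB day 4 (18.8% and 22.1%), and at EB day 3 those shares were 12.9% and 10.7%. Rbm24, a splicing factor of heart and muscle, was higher at EB day 3 (3.17 ± 0.53, adjusted p = 0.00406) and EB day 4 (4.75 ± 0.53, 0.000254). Dppa5a, an RNA-binding protein of pluripotent cells, was lower at EB day 3 (-1.91 ± 0.41, adjusted p = 0.0117), ML day 3 (-1.83 ± 0.41, 0.0139) and EB day 4 (-4.48 ± 0.41, 0.000116). Dazl, a germ cell translation factor, was at least 3.03-fold lower at EB day 4 (adjusted p = 0.00126), where it was not well above background. Rbm47 was higher in EB than in ML at day 3 (2.38 ± 0.30, adjusted p = 0.00556), as Igf2bp2 was.

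Epithelial genes and their repressors were compared with Esrp1 and Esrp2 in a list of 18, with 17 measured. At EB day 4, 6 were higher and 2 lower than in undifferentiated cells, against 18.8% and 22.1% of all genes. The 4 with the largest changes are all mesenchymal genes: Cdh2 (5.14 ± 0.55, adjusted p = 0.000196), Snai1 (3.37 ± 0.39, 0.000302), Snai2 (3.11 ± 0.79, 0.0123) and Zeb2 (2.49 ± 0.49, 0.00396). The other genes called higher were Cldn6 and Cldn7, and those called lower were Ovol1 and Grhl2. From EB day 3 to EB day 4, where Esrp1 fell, 2 were higher and 2 lower, against 3.85% and 8.79% of all genes. Snai2 rose by 4.35 ± 0.79 (adjusted p = 0.0111) and Zeb1 by 2.12 ± 0.50 (0.0278). Cdh1, the epithelial cadherin, fell by 1.00 (SE 0.25, adjusted p = 0.0330) and Grhl2, an activator of epithelial genes, by 1.16 (-1.16 ± 0.30, 0.0351). At ML day 3, where Esrp1 was highest, 6 were higher and 1 lower, against 12.7% and 10.8% of all genes. Among them were the claudins Cldn7 (2.78 ± 0.39, adjusted p = 0.00206) and Cldn6 (2.69 ± 0.27, 0.000533), while Zeb1, a repressor of epithelial genes, was lower (-3.30 ± 0.50, 0.00283). The list mixes epithelial with mesenchymal genes, and the other genes called higher at ML day 3 are not named here. Cldn7, Cldn6 and Zeb1 therefore do not stand for the list at ML day 3, and the counts give no direction for the epithelial genes as a set.

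For members whose group means spanned at least 1 on the log2 scale, the genes with the most similar course over the 12 arrays were named by Pearson's r. For Hmga2 these were Bmper (0.984), Pcdhga9 (0.972) and Bmp2 (0.972). For Igf2bp2 they were Shisa2 (0.972), Cfap410 (0.948) and Trib2 (0.935), and for Lin28a Tatdn1 (0.969), Dhrs11 (0.942) and Lig4 (0.940). Esrp1 was most like Shroom2 (0.955), Abl2 (0.955) and H2al2a (0.954), and Esrp2 most like Pafah2 (0.916), Cebpd (0.907) and Syt4 (0.907). These are the highest of many correlations over 6 groups of 2 and describe these arrays only.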

How the data were processed

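Total RNA carried Cy3 on 12 arrays, 1 sample each, per the labels. The deposited scanner files hold background-subtracted spot signals as intensity, made with Agilent Feature Extraction per the file headers (versions 10.5.1.1, 10.7.3.1 and 10.7.1.1; the submitters' processing notes give 9.5.1.1). Per-spot flags are the other deposited values used. The deposited value table (intensity, equal quantiles in every column) served as an alternative, and its columns correlated at 0.998 to 1.000 with the scanner files.

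Each array was scaled to the 75th percentile of its 43379 non-control spots before log2 was taken. Outlier spots (51 to 172 per array) were dropped, and 0 were saturated. Probes well above background in both arrays of any group stayed in (26174 of 41174), and the brightest probe stood for a gene. RefSeq accessions named 24844 probes, a name shared with such a probe named 4198, and 12132 kept the file's name. Limma 3.58.1 in R 4.3.3 fitted 6 group means to all 12 arrays, with 6 residual and 3.19 prior degrees of freedom and two-sided tests. The number of arrays limits precision. Over all genes the median change lay between -0.14 and 0.13.

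Genes named are all members, up to 4 called genes of each list with the largest change per comparison, and the 3 genes most like each member of wide range. Tut4, Dis3l2, the other epithelial genes called at EB day 4, the Grhl2 course and the markers Dcn and Mixl1 were named beyond this rule, after their values were seen. Changes are given for the 37 of 88 member comparisons with an unadjusted p under 0.05. Members and lists were chosen with earlier results of these data known. Alternatives were normexp (offset 50), quantile normalization, the authors' values, other filters, the mean of probes or the second probe, a replicate block, a trended prior, fewer arrays and single arrays left out. The fit was tested on simulated data for EB day 3 against EB day 1 over 17762 genes. With a true log2 change of 1 it found 11 of 67 genes, with 2 it found 54 of 67 and with 3 it found 66 of 66, beside 3 false calls. In this simulation 17562 genes were left unchanged, while the data gave 962 calls for the comparison. The shares found therefore need not hold for the member calls. Clone differences correlated at -0.154 to 0.228 between groups, so clone numbers were not taken to pair the arrays. Plots were made in Python 3.11.15 (matplotlib 3.10.9).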

Additional observations from a re-analysis of the deposited data

How the results depend on the processing

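The member calls per comparison varied as follows, out of 8; causes were not tested except where fewer arrays entered. With EB day 1 against undifferentiated cells (1 call), 0 remained under quantile normalization, the authors' values, no filter, the mean of probes, the second probe and the compared groups alone. EB day 4 against undifferentiated cells (5 calls) had 3 under quantile normalization and 3 with the authors' values. EB day 3 against undifferentiated cells (4) had 2 with the mean of probes, 1 with the second probe and 0 with the groups alone. ML day 1 against undifferentiated cells (1) had 2 with the strict filter, 2 with the trended prior and 0 with the groups alone, where ML day 3 against undifferentiated cells (4) and ML day 3 against ML day 1 (1) also had 0. EB day 3 against EB day 1 (1) had 0 with the mean of probes and with the groups alone. EB day 4 against EB day 3 (1) had 2 with the second probe and 0 with the groups alone. EB day 3 against ML day 3 (1) had 0 without a filter, with the groups alone and with the shared scan day alone.

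With the second probe the change reversed for Igf2bp3 at EB day 1 (-0.084) and Lin28b at EB day 3 (-0.15) and ML day 1 (-0.017). The second Lin28b probe reads near background. Leaving out single arrays gave 0 to 1 calls for EB day 1, 0 to 2 for ML day 1, 1 to 4 for EB day 3, 1 to 5 for ML day 3 and 2 to 3 for EB day 4, each against undifferentiated cells. It gave 0 to 1 for EB day 3 against EB day 1 and 0 to 2 each for ML day 3 against ML day 1, EB day 4 against EB day 3 and EB day 3 against ML day 3. The replicate block, with clone number as the pairing, kept 18 of 19 calls and lost Esrp1 at ML day 3 (adjusted p = 0.0532). Of the 19 calls, normexp kept 15, quantile normalization 16, the authors' values 16, no filter 15 and the strict filter 19.

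Counts over all genes also moved: EB day 4 against undifferentiated cells had 7251 calls (4660 to 13502 over the alternatives), EB day 3 against undifferentiated cells 4205 (1635 to 4497), ML day 3 against undifferentiated cells 4175 (962 to 5728), ML day 1 against undifferentiated cells 3196 (277 to 3741) and EB day 1 against undifferentiated cells 2371 (204 to 2906). EB day 4 against EB day 3 had 2245 (239 to 7619), ML day 3 against ML day 1 2206 (379 to 4765), EB day 3 against EB day 1 962 (104 to 1078), EB day 3 against ML day 3 585 (0 to 2475), the EB to ML difference in change 43 (0 to 298) and EB day 1 against ML day 1 12 (0 to 23). The balance of directions at EB day 4 also moved. Against undifferentiated cells 3334 genes were higher and 3917 lower in the main fit, 3698 and 2562 with normexp, and 9469 and 4033 with no filter. Against EB day 3 it was 684 and 1561, 1724 and 1197, and 5626 and 1993 in the same order. Slide as a random block was not run, since each slide holds whole groups and its correlation could not be estimated.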

Other observations

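Grhl2, an activator of epithelial genes that was chosen here after its values were seen, rose and then fell in both culture formats. It was higher than in undifferentiated cells at EB day 1 (1.29 ± 0.30, limma adjusted p = 0.0250) and ML day 1 (1.503 ± 0.30, 0.0143). From day 1 to day 3 it fell by 1.30 in EB (-1.30 ± 0.30, adjusted p = 0.0380) and by 1.39 in ML (-1.39 ± 0.30, 0.0183).

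A probe that the files describe as Lin-28 homolog B without that gene name was well above background on 1 of 12 arrays, and gives no course for the gene.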
